A study of Mus musculus with 6 samples.

Results

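The mammalian circadian clock genes Arntl (also called Bmal1), Clock, Per1, Per2, Per3, Cry1, Cry2, Dbp, Tef and Nr1d1 were examined in mammary tumors of NeuT/ATTAC mice. They were chosen by symbol, as the 10 genes of the core loop and its best known outputs, and found through their Ensembl IDs in the mouse annotation. All 10 were among the 54532 gene IDs of the files, and all 10 passed the filter (a mean of 0.5 FPKM or more) that left 15040 genes for testing. FPKM (sequenced fragments per length of exon and per size of library) is a level per length of transcript, so that genes can be set beside each other.

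RNAseq was performed on 3 tumors of mice treated with a control IgG and on 3 tumors of mice treated with an anti-PD-1 monoclonal antibody, which blocks an inhibitory receptor of T cells. All mice, controls included, carried MMTV-NeuT, in which the MMTV promoter drives Erbb2 in the mammary epithelium, and FAT-ATTAC, through which AP20187 ablates adipose tissue and induces fibrosis. FAT-ATTAC had been brought from C57BL/6 into the FVB strain. AP20187 was given at 0.4 mg/kg from 6 weeks of age (biweekly in the labels, triweekly in the methods), and 100 µg of IgG or anti-PD-1 mAb was given 2 times per week from 8 weeks of age.

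The sources used here give neither the hour nor the day on which a tumor was taken, nor the light schedule. A difference in collection time between the groups and an effect of the antibody therefore cannot be told apart. The labels number the tumors 1 to 3 in each group without stating that each came from a separate mouse, and a legend of the study describes pooled RNA. P-values measure the spread between these 6 files, which may be technical.

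In the clock, the ARNTL and CLOCK proteins form a dimer that binds E-boxes and switches on the Per and Cry genes, whose products then repress that dimer. The dimer also drives Nr1d1, Dbp and Tef. NR1D1 represses Arntl at ROR elements, and DBP and TEF activate genes at D-boxes. In tissues with a running clock, Arntl is therefore high when Nr1d1, Dbp and Per3 are low, and the reverse holds on the other side of the day. Per1 and Per2 also respond directly to glucocorticoids, growth signals and temperature. Many tumors keep only a weak rhythm.

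The letters through which these factors act were searched on both strands in the RefSeq promoters (GRCm38.p6, 250 bases before to 50 after a start). Of the 10 genes, 9 were in the promoter table, with 14 promoters among 32851. Per2 was not in it and was not searched. Some members had several promoters, so the counts below are of genes and the percentages are of promoters. The E-box CACGTG was in promoters of 3 members (Per1, Cry1 and Tef) and in 7.15% of all promoters. The variant CACGTT, which reads AACGTG on the other strand, was in those of Cry1, Cry2 and Nr1d1 and in 4.68% of all. The D-box, searched as TTATGTAA or TTACGTAA, was in that of Per3 and in 1.06% of all. The ROR element, searched as TAGGTCA or TGGGTCA, was in that of Arntl and in 6.45% of all. The cyclic AMP element TGACGTCA was in none of the 14 and in 1.79% of all.

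The sequences of 4 promoters are shown because together they hold the 4 kinds of element found, at genes on different arms of the loop. They read 5′ to 3′ along the gene, and capitals mark the elements named above. The Per3 promoter, on the minus strand at chr4:151044616-151044915, held the D-box at 205 and at 158 bases upstream of the start. That of Cry1, on the minus strand at chr10:85185005-85185304, held CACGTG at 60 and AACGTG at 79 bases upstream. That of Per1, on the plus strand at chr11:69098699-69098998, held CACGTG at 166 bases upstream. That of Arntl, on the plus strand at chr7:113207261-113207560, held TAGGTCA at 30 bases downstream of the start.
Per3: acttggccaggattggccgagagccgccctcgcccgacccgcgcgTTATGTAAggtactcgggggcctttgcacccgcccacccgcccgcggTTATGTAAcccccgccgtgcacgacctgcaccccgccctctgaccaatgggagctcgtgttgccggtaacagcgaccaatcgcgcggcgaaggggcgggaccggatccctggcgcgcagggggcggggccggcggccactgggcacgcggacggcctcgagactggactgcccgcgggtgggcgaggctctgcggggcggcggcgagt
Cry1: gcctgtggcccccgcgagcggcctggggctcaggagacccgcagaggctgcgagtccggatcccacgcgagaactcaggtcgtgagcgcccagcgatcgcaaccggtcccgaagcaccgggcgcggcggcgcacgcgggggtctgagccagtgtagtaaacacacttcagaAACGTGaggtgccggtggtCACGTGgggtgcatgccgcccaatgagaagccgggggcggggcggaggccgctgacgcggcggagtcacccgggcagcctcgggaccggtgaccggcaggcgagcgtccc
Per1: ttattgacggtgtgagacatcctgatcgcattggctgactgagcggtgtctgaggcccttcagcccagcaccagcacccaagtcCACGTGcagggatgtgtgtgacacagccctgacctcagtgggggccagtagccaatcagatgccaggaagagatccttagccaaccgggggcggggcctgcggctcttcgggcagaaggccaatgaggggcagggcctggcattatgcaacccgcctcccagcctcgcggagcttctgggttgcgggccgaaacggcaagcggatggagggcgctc
Arntl: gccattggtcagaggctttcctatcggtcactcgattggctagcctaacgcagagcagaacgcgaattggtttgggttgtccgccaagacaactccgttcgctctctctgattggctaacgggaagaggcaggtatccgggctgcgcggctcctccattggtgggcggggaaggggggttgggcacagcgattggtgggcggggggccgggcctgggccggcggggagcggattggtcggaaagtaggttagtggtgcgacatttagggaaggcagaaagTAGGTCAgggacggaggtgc

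The reads recovered from the FPKM values summed to between 21075641 and 23852764 per tumor, and each member had between 180 and 6852 reads in a tumor. The tissue matched its label: the summed level of epithelial markers was 1889 to 2622 FPKM in IgG tumors and 2511 to 3625 FPKM in anti-PD-1 tumors. Markers of adipocytes summed to between 1.77 and 6.94 FPKM, those of T cells to between 0.196 and 3.17 FPKM and those of B cells to between 0.0775 and 2.09 FPKM. Markers of skeletal muscle stood apart in IgG replicate 2 (135 FPKM) and in anti-PD-1 replicates 1 and 2 (74.6 and 147 FPKM), against at most 5.26 FPKM in the others. In bulk tumor RNA, fewer cells of a type and less RNA per cell cannot be told apart.

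No clock member passed the test between the groups. Of the 10, 0 had an adjusted p under 0.05 in limma, and over all tested genes the call rate was 0% (0 of 15040, with a smallest adjusted p of 0.081). Limma's voom on recovered reads called 1 gene of all. At an unadjusted p under 0.05, limma gave 1 member, Per3, against 12.3% of all tested genes. That call was for a lower level in anti-PD-1 tumors, as for 6.06% of all tested genes, and no member was called higher, as were 6.22% of all. Per3 was also the 1 member whose groups did not overlap, against 18.1% of all tested genes. A count of 1 in 10 was thus near the background. Of the log2 fold changes, 3 were above 0 (Arntl, Clock and Per1) and 7 below, with a median of -0.30, beside 0.01 over all tested genes. Without IgG replicate 3 the members' median was -0.13, with 4 above 0 and 6 below.

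**Figure D1:**
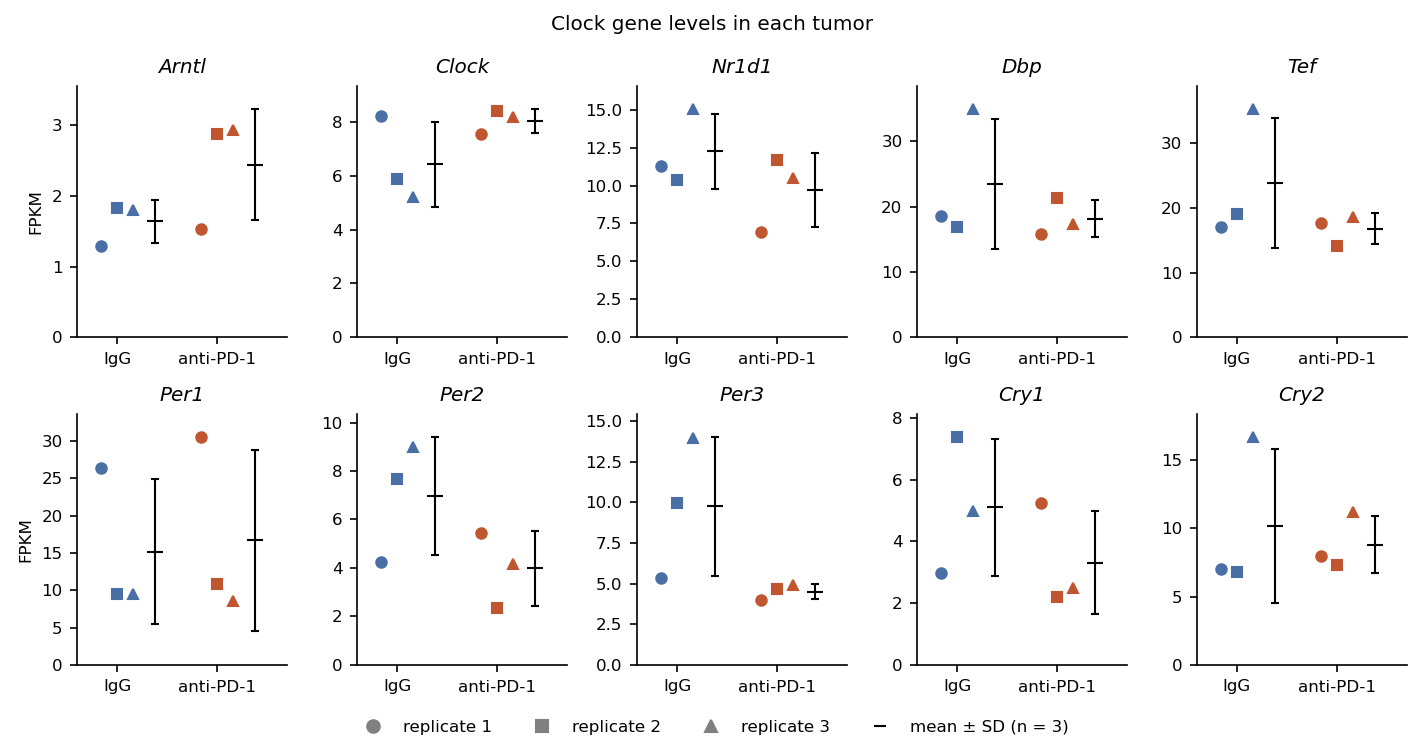
Level (FPKM, y axis from 0) of the 10 clock genes in the 3 IgG tumors (blue) and the 3 anti-PD-1 tumors (orange). Each point is a tumor, its shape gives the replicate number, and the black bar gives the mean ± SD (n = 3). The groups overlapped for every gene but Per3, whose 3 anti-PD-1 tumors (3.98, 4.64 and 4.92) lay below the 3 IgG tumors (5.37, 9.97 and 13.9).

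Arntl and Clock encode the activating dimer. Arntl (ENSMUSG00000055116, plus strand, chr7:113207465-113314126 in GRCm38) was at 1.29, 1.83 and 1.80 FPKM across IgG replicates 1 to 3. It was at 1.53, 2.87 and 2.93 FPKM across the anti-PD-1 replicates in the same order, which is kept for all genes. It was highest in anti-PD-1 replicates 2 and 3, while anti-PD-1 replicate 1 lay within the IgG range. The means were 1.64 ± 0.304 FPKM and 2.44 ± 0.788 FPKM (SD, n = 3 each). The log2 fold change of FPKM + 1, anti-PD-1 minus IgG, was 0.36 (SE 0.23, limma adjusted p = 0.551), and it ran from 0.25 to 0.57 (without anti-PD-1 replicate 1) as single tumors were left out. A sum of 1 and the FPKM understates the change of a gene as low as Arntl, and with 0.1 added the log2 fold change was 0.51. Clock (ENSMUSG00000029238, minus strand, chr5:76209868-76304792) was at 8.23, 5.91 and 5.21 FPKM in the IgG tumors and at 7.56, 8.41 and 8.21 FPKM in the anti-PD-1 tumors. IgG replicate 1 was as high as the anti-PD-1 tumors, and the other two IgG tumors were lower. Its log2 fold change was 0.30 (SE 0.19, limma adjusted p = 0.538), with 0.18 when IgG replicate 3 was left out and 0.47 when IgG replicate 1 was. The pseudogene Ube2n-ps1 shares 459 bases with Clock on the same strand, and reads of the overlap could not be separated.

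Nr1d1 encodes REV-ERBα, the repressor of Arntl. Nr1d1 (ENSMUSG00000020889, minus strand, chr11:98767932-98775333) was at 11.3, 10.4 and 15.1 FPKM in the IgG tumors and at 6.95, 11.7 and 10.5 FPKM in the anti-PD-1 tumors. The groups overlapped between 10.4 and 11.7 FPKM, with IgG replicate 3 above all others and anti-PD-1 replicate 1 below all others. Between the groups Nr1d1 had a log2 fold change of -0.32 (SE 0.23, limma adjusted p = 0.600), and it was -0.17 when IgG replicate 3 was left out and -0.12 when anti-PD-1 replicate 1 was. Nr1d1 overlaps Thra on the other strand over 1075 bases (mean 6.97 FPKM), and whether the counting used strand is not given in the sources used here.

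Dbp and Tef encode PAR bZIP activators, outputs of the loop. Dbp (ENSMUSG00000059824, plus strand, chr7:45705088-45710203) was at 18.6, 16.9 and 35.0 FPKM in the IgG tumors and at 15.8, 21.3 and 17.4 FPKM in the anti-PD-1 tumors. IgG replicate 3 stood well above the other 5 tumors, which spanned 15.8 to 21.3 FPKM without separating by group. The log2 fold change was -0.29 (SE 0.28, limma adjusted p = 0.701), and it was 0.024 without IgG replicate 3. Dbp overlaps Sphk2 on the other strand over 737 bases (mean 10.9 FPKM). Tef (ENSMUSG00000022389, plus strand, chr15:81802421-81826863) was at 17.0, 19.1 and 35.3 FPKM in the IgG tumors and at 17.6, 14.1 and 18.6 FPKM in the anti-PD-1 tumors. Here too IgG replicate 3 was alone at the top. Its log2 fold change was -0.42 (SE 0.28, limma adjusted p = 0.574), and it was -0.10 without IgG replicate 3.

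Per1, Per2 and Per3 encode the PERIOD proteins of the repressor complex, and each had a pattern of its own. Per1 (ENSMUSG00000020893, plus strand, chr11:69095217-69109960) was at 26.4, 9.55 and 9.53 FPKM in the IgG tumors and at 30.6, 10.9 and 8.56 FPKM in the anti-PD-1 tumors. Replicate 1 of each group was at more than 2 times the level of the other 4 tumors, and the groups overlapped throughout. For Per1 the log2 fold change was 0.08 (SE 0.54, limma adjusted p = 0.964), and leaving out single tumors moved it between -0.44 and 0.54. Per2 (ENSMUSG00000055866, minus strand, chr1:91415982-91459324) was at 4.26, 7.68 and 8.99 FPKM in the IgG tumors and at 5.43, 2.36 and 4.16 FPKM in the anti-PD-1 tumors. IgG replicates 2 and 3 were above all others, while IgG replicate 1 lay among the anti-PD-1 tumors. Its log2 fold change was -0.68 (SE 0.32, limma adjusted p = 0.438), and it ran from -0.95 without IgG replicate 1 to -0.42 without anti-PD-1 replicate 2.

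Per3 (ENSMUSG00000028957, minus strand, chr4:151003652-151044665) was at 5.37, 9.97 and 13.9 FPKM in the IgG tumors and at 3.98, 4.64 and 4.92 FPKM in the anti-PD-1 tumors. All anti-PD-1 tumors were lower than all IgG tumors, although IgG replicate 1 came close to them. The mean in anti-PD-1 tumors was 0.463 times that in IgG tumors (4.52 ± 0.480 and 9.76 ± 4.29 FPKM, SD, n = 3 each). The log2 fold change was -0.88 (SE 0.31, limma unadjusted p = 0.0224 and adjusted p = 0.364). The exact permutation test over the 20 splits of the tumors gave p = 0.1, the smallest it can give. The unadjusted p in limma was 0.0672 without IgG replicate 2, 0.0647 without IgG replicate 3, 0.0654 without anti-PD-1 replicate 1 and 0.0533 without anti-PD-1 replicate 2. The value was 0.0431 without anti-PD-1 replicate 3 and 0.000977 without IgG replicate 1, the latter with an adjusted p of 0.0999 in limma.

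Per3 lies on chromosome 4, whose genes were lower in anti-PD-1 tumors as a body. Of its 925 tested genes, 83.6% had a lower mean in anti-PD-1 tumors, and their median log2 fold change was 0.41 below that of all tested genes. The median of the chromosome's genes, as log2 differences from the mean over tumors, was -0.09, 0.35 and 0.31 in the IgG tumors and -0.16, -0.22 and -0.24 in the anti-PD-1 tumors. IgG replicate 1 thus lay with the anti-PD-1 tumors in these genes, as it came nearest to them in Per3. The part of this in the level of Per3 was not tested. Per3 also lies within Camta1, on the same strand over 41014 bases, at 0.285, 0.642 and 0.980 FPKM in the IgG tumors and at 0.409, 0.408 and 0.368 FPKM in the anti-PD-1 tumors.

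Cry1 and Cry2 encode the cryptochromes, the partners of the PERIOD proteins. Cry1 (ENSMUSG00000020038, minus strand, chr10:85131700-85185064) was at 2.97, 7.39 and 4.97 FPKM in the IgG tumors and at 5.24, 2.21 and 2.49 FPKM in the anti-PD-1 tumors. It was lowest in anti-PD-1 replicates 2 and 3, and anti-PD-1 replicate 1 lay within the IgG range. Cry1 had a log2 fold change of -0.50 (SE 0.35, limma adjusted p = 0.591), which ran from -0.80 without anti-PD-1 replicate 1 to -0.24 without IgG replicate 2. Cry2 (ENSMUSG00000068742, minus strand, chr2:92403646-92434043) was at 6.98, 6.81 and 16.7 FPKM in the IgG tumors and at 7.93, 7.29 and 11.2 FPKM in the anti-PD-1 tumors. Replicate 3 of each group was high, and the groups overlapped. Cry2 had a log2 fold change of -0.10 (SE 0.34, limma adjusted p = 0.926), and it was 0.29 without IgG replicate 3. D930015M05Rik, which overlaps Cry2 on the other strand over 23417 bases, was at 3.92 and 3.41 FPKM in the same replicates and at 0.720 to 2.0 FPKM in the other 4 tumors.

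**Figure D2:**
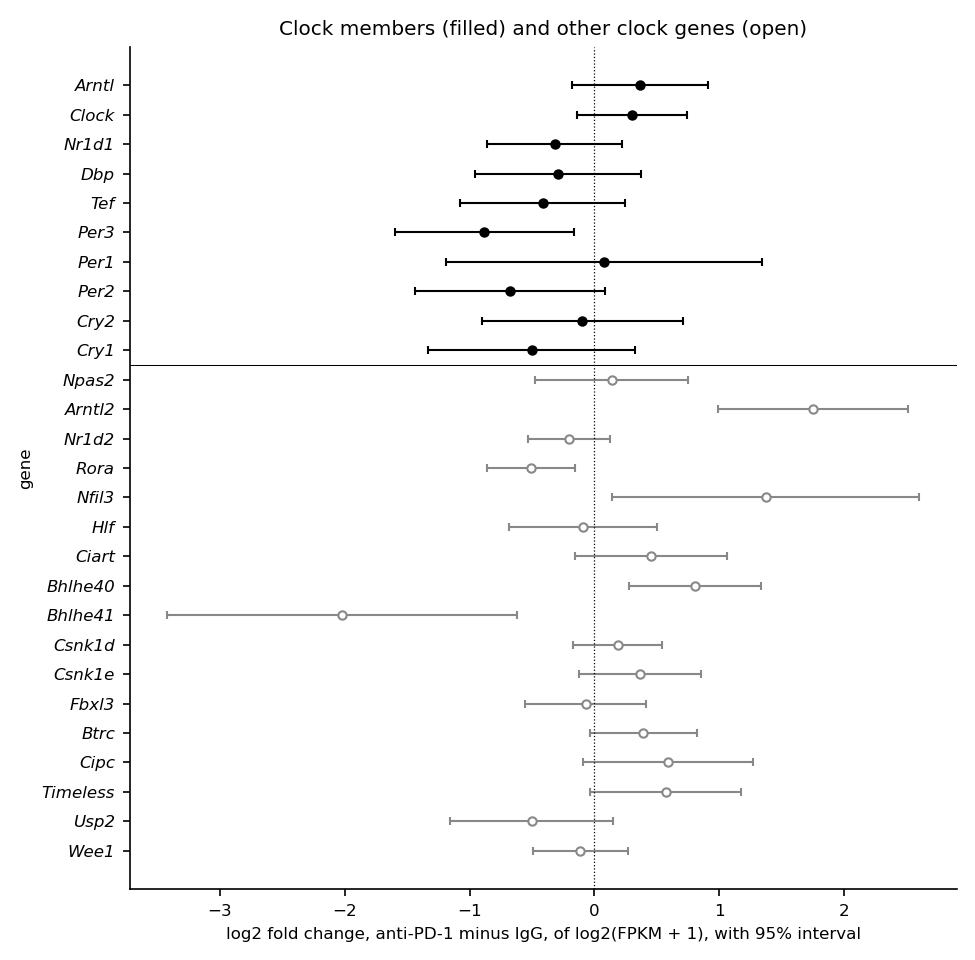
Log2 fold change of FPKM + 1, anti-PD-1 minus IgG (x axis), of the 10 clock members (filled) and of 17 other clock genes (open), with the 95% interval from limma. The interval of Per3 (-1.60 to -0.17) leaves out 0, and those of the other 9 members include it.

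In order of level per length in IgG tumors, the members ran from Tef (23.8 ± 10.0 FPKM, SD, n = 3) and Dbp (23.5 ± 9.99) through Per1 (15.2 ± 9.74), Nr1d1 (12.3 ± 2.47), Cry2 (10.2 ± 5.66), Per3 (9.76 ± 4.29), Per2 (6.98 ± 2.44), Clock (6.45 ± 1.58) and Cry1 (5.11 ± 2.22) to Arntl (1.64 ± 0.304). The SD intervals of all neighbours in that order overlapped except those of Cry1 and Arntl. In anti-PD-1 tumors Dbp (18.2 ± 2.84 FPKM), Tef (16.8 ± 2.36) and Per1 (16.7 ± 12.1) were highest, and Cry1 (3.31 ± 1.67) and Arntl were lowest. Clock (8.06 ± 0.445 FPKM) was above Per3 (4.52 ± 0.480) and Per2 (3.98 ± 1.54) there, whereas its mean was below both in IgG tumors. That order rested on IgG replicates 2 and 3, since in IgG replicate 1 Clock (8.23 FPKM) was above Per3 (5.37 FPKM) and Per2 (4.26 FPKM).

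The members differed in how much they varied between tumors. For 8 of the 10, the range of log2(FPKM + 1) over the 6 tumors was above the median range of all tested genes (0.80). On that scale Per1 had the widest range, with a highest level 3.57 times its lowest, and stood at percentile 89.1 of all tested genes. Per2 (3.81 times), Per3 (3.5 times) and Cry1 (3.35 times) were at percentiles 86.2, 86.5 and 82.0. Arntl (2.27 times) and Clock (1.61 times) were below the median, at percentiles 48.1 and 31.1.

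Single tumors set most of the extremes. IgG replicate 3 was the highest of the 6 tumors for Per2, Per3, Cry2, Dbp, Tef and Nr1d1 and the lowest for Clock. Anti-PD-1 replicate 1 was lowest for Per3, Dbp and Nr1d1, and anti-PD-1 replicate 2 was lowest for Per2, Cry1 and Tef. IgG replicate 3 also had the lowest epithelial markers (1889 FPKM) and the lowest macrophage markers (132 FPKM) of the 6 tumors. Their part in its clock gene levels was not tested.

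**Figure D3:**
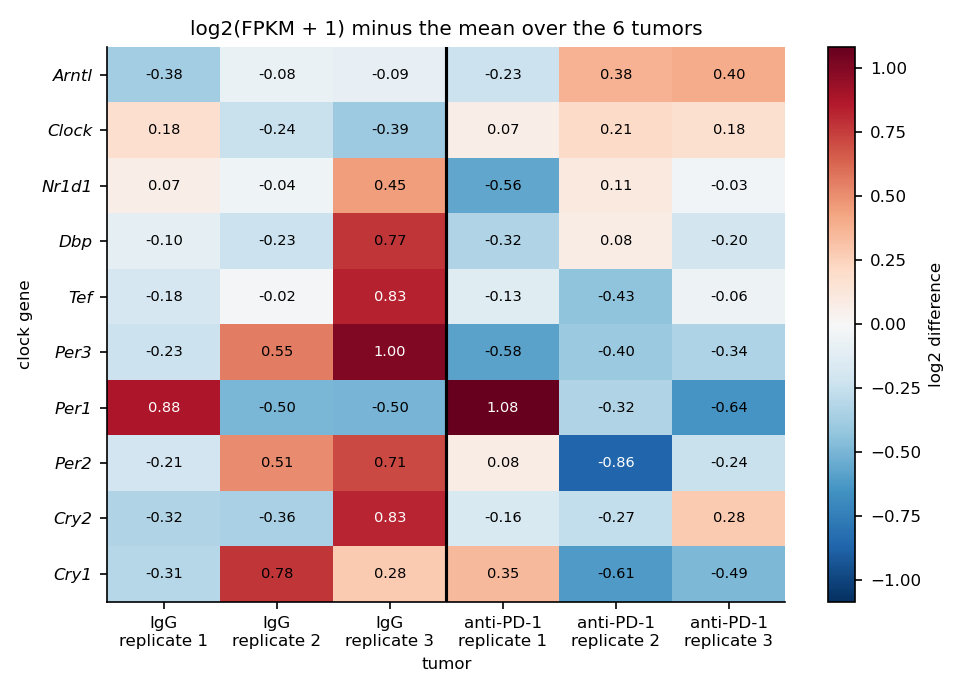
Each cell gives log2(FPKM + 1) of a clock gene (rows) in a tumor (columns) minus the mean of that gene over the 6 tumors, from blue (lower) to red (higher). The column of IgG replicate 3 is highest for 6 genes. Arntl is highest in anti-PD-1 replicates 2 and 3, and Per1 in replicate 1 of both groups.

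Whether the tumors differed in phase was then asked across tumors. As an index, the centred log2 level of Arntl minus the mean of 4 of its opposites (Dbp, Tef, Nr1d1 and Per3) was taken, which is high on the Arntl side of the day. The index took the values -0.27, -0.14 and -0.85 across the IgG replicates, and 0.17, 0.54 and 0.55 across those of the anti-PD-1 group. Each anti-PD-1 tumor was above each IgG tumor, and the means were -0.42 ± 0.38 and 0.42 ± 0.22 (SD, n = 3 each), a difference of 0.84. No test was made, because the index was composed with results of these tumors known, and Per3 is among its genes. Without Per3 the index was -0.31, 0.024 and -0.77 in the IgG tumors and 0.11, 0.46 and 0.49 in the anti-PD-1 tumors, a difference of 0.70. With Clock and Npas2 beside Arntl and with Nr1d2, Per1, Per2 and Ciart among the opposites the index was -0.035, -0.046 and -0.74 in the IgG tumors and 0.0087, 0.36 and 0.45 in the anti-PD-1 tumors, a difference of 0.55. Replicate 1 of each group and IgG replicate 2 then lay close together near 0. Without IgG replicate 3 the difference of the first index, with Dbp, Tef, Nr1d1 and Per3 as opposites, was 0.62 in place of 0.84. The longer index was not recomputed without that tumor.

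An index can be high through Arntl alone or through its opposites alone, so the genes were also set against each other in pairs. Over the 6 tumors, the Pearson r of Arntl was 0.028 with Dbp (exact permutation p = 0.967), 0.19 with Nr1d1 (exact permutation p = 0.735), -0.19 with Per3 (exact permutation p = 0.774) and -0.23 with Tef (exact permutation p = 0.728). Spearman's rho was 0.086, 0.086, -0.086 and 0.086 (exact permutation p = 0.919 for each). None of these 4 pairs passed the test. For Dbp the r of 0.028 was at percentile 52.8 of all tested genes, and for Nr1d1 it was at percentile 64.0.

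The other 5 pairs with Arntl did not pass the test either. The r was -0.72 with Per1 (exact permutation p = 0.108, rho = -0.71, exact permutation p = 0.136), -0.54 with Cry1 (exact permutation p = 0.290, rho = -0.43, exact permutation p = 0.419) and -0.50 with Per2 (exact permutation p = 0.318, rho = -0.43, exact permutation p = 0.419). It was 0.29 with Clock (exact permutation p = 0.590, rho = 0.14, exact permutation p = 0.803) and 0.17 with Cry2 (exact permutation p = 0.825, rho = 0.20, exact permutation p = 0.714). All tests were two-sided over 720 pairings. Adjusted over the 9 pairs, the smallest exact permutation p was 0.928 for r and 0.919 for rho. Over all tested genes, r with Arntl ran from -0.67 at the 5th to 0.70 at the 95th percentile, and Per1 (percentile 3.5) was the 1 member outside that range.

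The pairs rested on few tumors. When the 2 tumors with Arntl farthest from its median, anti-PD-1 replicates 2 and 3, were left out, r was 0.96 with Per2, 0.87 with Cry1, 0.77 with Per3, 0.61 with Tef, 0.40 with Dbp and 0.29 with Nr1d1. It was -0.86 with Per1, -0.93 with Clock and 0.47 with Cry2. The sign was kept in 4 of the 9 pairs, so the negative relations with Per2 and Cry1 rested on those tumors. Groups of 3 tumors were too small for a correlation within each treatment.

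**Figure D4:**
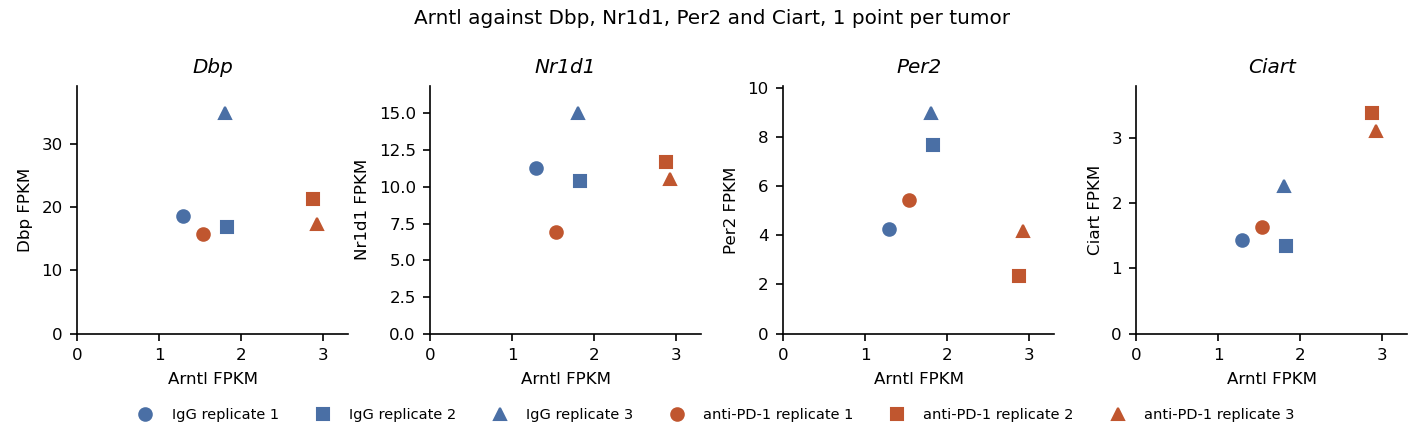
FPKM of Dbp, Nr1d1, Per2 and Ciart (y axes, from 0) against FPKM of Arntl (x axis, from 0), with 1 point per tumor, IgG in blue and anti-PD-1 in orange. The r was 0.028 for Dbp, 0.19 for Nr1d1 and 0.90 for Ciart. It was -0.50 for Per2 (exact permutation p = 0.318) and 0.96 without anti-PD-1 replicates 2 and 3.

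Another 19 genes of the clock were taken from a list of partners, repressors, kinases and outputs, of which 17 were tested (Rorb and Fbxl21 were too low). The log2 fold change was above 0 for 10 of them and below 0 for 7, and its median was 0.19. In limma 0 had an adjusted p under 0.05. At an unadjusted p under 0.05 there were 5, of which 3 were higher (Arntl2, Nfil3 and Bhlhe40) and 2 lower (Rora and Bhlhe41), against 12.3% of all tested genes. The groups did not overlap for 7 of the 17, against 18.1% of all: Arntl2, Bhlhe40, Csnk1d and Btrc were higher, and Nr1d2, Rora and Bhlhe41 lower. The list was chosen with earlier results of these tumors known, and nothing particular to it is read from the counts.

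Arntl2, a paralog of Arntl that also pairs with CLOCK, had the highest log2 fold change of the list. It was at 1.54, 1.45 and 0.164 FPKM in the IgG tumors and at 5.31, 6.59 and 4.79 FPKM in the anti-PD-1 tumors. The lowest anti-PD-1 tumor was at about 3 times the highest IgG tumor. The log2 fold change was 1.75 (SE 0.32, limma unadjusted p = 0.000898, adjusted p = 0.344), and it was 2.96 by voom on the recovered reads. The unadjusted p in limma ran from 0.000415 to 0.00544 as single tumors were left out. In anti-PD-1 tumors the level of Arntl2 per length was above that of Arntl, and in IgG tumors it was below in replicates 2 and 3. Npas2, a paralog of Clock, was at 0.602, 0.682 and 0.0847 FPKM and at 0.374, 0.522 and 0.865 FPKM, with the groups overlapping (limma adjusted p = 0.854).

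The repressors of the accessory loops stood on different sides. Bhlhe40 (DEC1) and Bhlhe41 (DEC2) both repress at E-boxes. Bhlhe40 was at 56.4, 36.4 and 34.5 FPKM in the IgG tumors and at 63.3, 77.8 and 79.1 FPKM in the anti-PD-1 tumors (log2 fold change 0.80, SE 0.22, limma adjusted p = 0.344). Bhlhe41 was at 16.9, 43.8 and 8.15 FPKM and at 5.97, 4.75 and 1.74 FPKM (log2 fold change -2.02, SE 0.60, limma adjusted p = 0.345). The 2 paralogs thus stood on opposite sides, each with no overlap between groups. Nfil3, which competes with DBP and TEF at D-boxes, was at 5.36, 0.715 and 0.681 FPKM and at 7.70, 4.08 and 6.22 FPKM (log2 fold change 1.37, SE 0.52, limma adjusted p = 0.379). IgG replicate 1 lay within the anti-PD-1 range of Nfil3, and an unadjusted p under 0.05 was reached in 2 of the 6 fits that left out a tumor.

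Rora encodes an activator that competes with REV-ERB proteins at the Arntl promoter. It was at 4.53, 5.11 and 5.45 FPKM in the IgG tumors and at 3.28, 3.16 and 3.25 FPKM in the anti-PD-1 tumors (log2 fold change -0.51, SE 0.15, limma adjusted p = 0.345). Both sets of tumors were tight for Rora, within 1 FPKM of each other in a group. Rora lies on chromosome 9, where 82.5% of 796 tested genes had a lower mean in anti-PD-1 tumors and the median log2 fold change was 0.37 below that of all genes. The part of this in the level of Rora was not tested. Nr1d2 (REV-ERBβ), the paralog of Nr1d1, was at 35.7, 35.3 and 34.6 FPKM and at 28.9, 33.2 and 29.1 FPKM (log2 fold change -0.21, SE 0.14, limma adjusted p = 0.572).

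Ciart (CHRONO), a repressor driven by E-boxes like Nr1d1, was at 1.44, 1.34 and 2.26 FPKM in the IgG tumors and at 1.64, 3.39 and 3.11 FPKM in the anti-PD-1 tumors. It was highest in the 2 tumors with the highest Arntl, with which its r was 0.90, given as a description. Its log2 fold change was 0.45 (SE 0.26, limma adjusted p = 0.502). For Csnk1d, a kinase of the PERIOD proteins, and Btrc, which takes part in their degradation, the groups did not overlap, with log2 fold changes of 0.19 (limma adjusted p = 0.632) and 0.39 (limma adjusted p = 0.433).

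**Figure D5:**
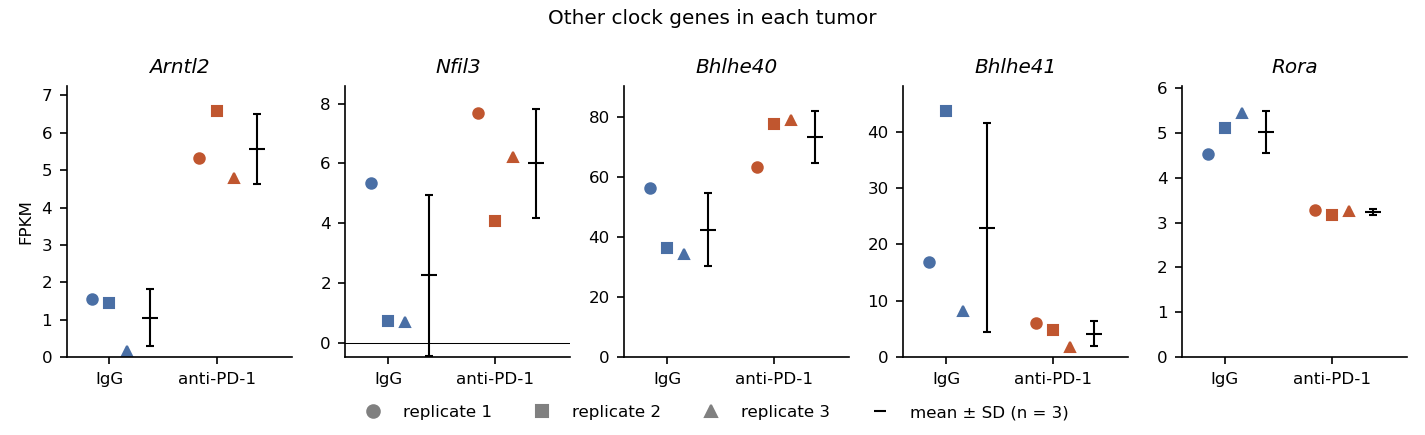
Level (FPKM, y axis) of 5 other clock genes in the IgG tumors (blue) and anti-PD-1 tumors (orange), with 1 point per tumor and the mean ± SD (n = 3) in black. The bar of Nfil3 in IgG tumors reaches below 0 because its SD (2.69) exceeds its mean (2.25). The groups are apart for Arntl2, Bhlhe40, Bhlhe41 and Rora, and they overlap for Nfil3.

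Cues that act on Per1 and Per2 were read from genes that respond to them. Tsc22d3 (GILZ), a glucocorticoid target, was at 18.9, 12.4 and 12.8 FPKM in the IgG tumors and at 23.3, 8.32 and 8.26 FPKM in the anti-PD-1 tumors. Fkbp5, another, was at 10.8, 8.45 and 7.95 FPKM and at 15.4, 9.16 and 10.1 FPKM. Both were highest in replicate 1 of each group, the tumors that were highest in Per1. Sgk1, also a target, was at 51.9, 45.8 and 32.1 FPKM and at 43.6, 68.1 and 44.2 FPKM, and did not follow that order. Nor did Zbtb16, which was highest in IgG replicate 2 (2.98 FPKM), or Errfi1, which was highest in IgG replicate 3 (87.5 FPKM). Klf9 was at 22.3, 17.8 and 21.8 FPKM and at 20.3, 10.7 and 13.5 FPKM, so that replicate 1 was highest within each group, with IgG replicate 3 close to it. Markers of fibroblasts summed to 185 and 271 FPKM in the same pair of tumors and to between 64.0 and 155 FPKM in the other 4. The part of these in the levels of Per1 was not tested.

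The glucocorticoid targets named did not pass the test in limma, with an adjusted p of 0.809 for Tsc22d3, 0.613 for Fkbp5 and 0.707 for Sgk1. Of the 6 glucocorticoid targets tested, 1 (Errfi1) had an unadjusted p under 0.05 in limma, for a lower level, against 6.06% of all tested genes. Errfi1 lies on chromosome 4, as Per3 does, where 83.6% of tested genes had a lower mean in anti-PD-1 tumors, and the part of this in its level was not tested. Of the immediate early genes, which growth signals induce within minutes, Fos was at 11.4 to 17.5 FPKM over the 6 tumors, Egr1 at 16.2 to 26.8 FPKM and Junb at 39.9 to 88.8 FPKM (limma adjusted p = 0.890, 0.805 and 0.50). In that list of 8, 2 (Egr2 and Nr4a1) had an unadjusted p under 0.05, both for a higher level, against 6.22% of all tested genes. Cirbp, a cold-inducible gene, was at 13.8, 28.2 and 16.8 FPKM in the IgG tumors and at 23.8, 16.3 and 5.96 FPKM in the anti-PD-1 tumors. The heat shock gene Hspa1b was at 71.7, 23.7 and 13.8 FPKM and at 26.8, 18.6 and 77.9 FPKM. Both spread widely within each group and overlapped between groups (limma adjusted p = 0.724 and 0.912), and 1 of the 6 genes of the temperature list (Dnajb1) had an unadjusted p under 0.05 in limma, for a higher level, against the same 6.22% of all.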

How the data were processed

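RNA of 3 tumors from IgG-treated and 3 from anti-PD-1-treated mice was measured by RNAseq, with groups taken from the labels. The authors deposited FPKM per Ensembl gene ID, and the submitters' processing notes name cutadapt 3.5, Bowtie2 2.4.1, RSEM 1.3.1 and mm10. How FPKM was computed and whether strand was used are not given in the sources used here.

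Gene IDs were matched to GENCODE M21 (GRCm38, 54495 of 54532). FPKM times exon length gave whole reads, within 0.1, for 97.0% to 97.3% of values. FPKM was divided by median-of-ratios factors (1.00 to 1.01), 1 was added and log2 taken. Genes averaging 0.5 FPKM or more (15040) were tested two-sided with limma 3.58.1 in R 4.3.3 (eBayes with trend, Benjamini-Hochberg over these genes). The same fit was also run on simulated reads, and the outcome of that run is not reported here. The exact permutation tests went through all splits or pairings with numpy 2.4.6, and scipy 1.17.1 gave the ranks for Spearman's rho. Fold changes are on the log2(FPKM + 1) scale and understate low genes.

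The members and lists were chosen with earlier results of these data known. Named were all 10 members; other clock genes with an unadjusted p under 0.05, without overlap, or closest to the loop; listed cue genes; and the 3 protein-coding genes with the highest and lowest r with Arntl. Npas2 and Ciart were named as loop partners. Errfi1, Zbtb16, Klf9, Egr2, Nr4a1 and Dnajb1 were named after their values were seen. From the list of other clock genes, 1 gene is not reported here. Alternatives were 0.1 added, no filter or a mean of 2 or more, quantile normalization, unscaled deposited FPKM, no eBayes trend, voom on recovered reads (14357 genes), a replicate block, leaving out each tumor and other index genes. Leaving out the tumors high in muscle markers, and the index without Per3, were added after seeing the data.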

Additional observations from a re-analysis of the deposited data

How the results depend on the processing

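Over 150 alternative fits of the members' log2 fold changes, 8 changed sign and none gave an adjusted p under 0.05. With single tumors left out, the log2 fold change ran from -0.44 to 0.54 for Per1, from -0.30 to 0.29 for Cry2, from -0.48 to 0.024 for Dbp and from -1.22 to -0.60 for Per3. The number of members at an unadjusted p under 0.05, 1 (Per3), then ran from 0 to 3, with Clock, Per2 and Per3 called without IgG replicate 1, and Arntl and Per2 without anti-PD-1 replicate 1. The number of all genes at an adjusted p under 0.05 in limma ran from 0 to 12 (12 without IgG replicate 1) and was 1 by voom, against 0. Without the 3 tumors high in skeletal muscle markers (chosen after seeing the data, leaving 2 IgG tumors and 1 anti-PD-1 tumor, which limma assumes to vary like them), 0 members and 2 other clock genes (Arntl2 and Bhlhe41), in place of 1 and 5, had an unadjusted p under 0.05, and the log2 fold change was -0.83 for Per1 and 0.032 for Cry2. The calls were lost with fewer tumors, at log2 fold changes of -0.72 for Per3, 0.83 for Bhlhe40, -0.49 for Rora and 1.14 for Nfil3. Without the 2 tumors farthest in Arntl, r with Arntl changed sign for Clock (-0.93), Per2 (0.96), Per3 (0.77), Cry1 (0.87) and Tef (0.61), and by Spearman's rho it did for Tef (0.086). The cause was not tested. The phase index difference stayed above 0, from 0.55 to 1.06.

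The labels give the replicates only a number, and the deviations of same-numbered tumors correlated at -0.16, 0.005 and 0.19, so they were not taken as pairs. With the replicate block, Per3 had an adjusted p of 0.395 in limma, and 1 member and 5 other clock genes had an unadjusted p under 0.05. With 3 tumors per group and intervals such as -1.19 to 1.35 for Per1, differences of 2 times lay within the limits of the most variable members.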

Other observations

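Among 12401 protein-coding genes tested, the 3 whose level rose and the 3 whose level fell most closely with Arntl over the 6 tumors held no clock gene of either list. The highest r with Arntl was that of Zdhhc4 (0.97), a palmitoyltransferase gene, at 8.72, 9.82 and 9.93 FPKM in IgG tumors and 8.90, 12.5 and 11.5 FPKM in anti-PD-1 tumors. It was followed by Lmntd2 (0.97) and by Sirt5 (0.97), which encodes a mitochondrial deacylase and was at 2.57, 2.68 and 2.80 FPKM and at 2.76, 3.78 and 3.76 FPKM. The lowest r was that of Sos1 (-0.99), a Ras exchange factor, at 5.48, 4.97 and 5.08 FPKM and at 5.36, 4.43 and 4.49 FPKM. Orc6 (-0.99), of the origin recognition complex, and Trim47 (-0.96) came next. These are the extremes of many genes over 6 tumors and are given as a description.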
